A study of Drosophila melanogaster with 3 samples.

Results

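The germ plasm and piRNA genes examined here are 10 genes chosen by name: *tud*, *vas*, *osk*, *nanos* (older symbol *nos*), *aub*, *piwi*, *spn-E*, *mael*, *gcl* and *krimp*. Their probes were those that the array's annotation assigns to exactly 1 of these genes, which gave 12 probes for 9 genes out of 11984 non-control probes. All 12 had a value on every array and are among the 11887 probes tested. No probe of *spn-E* was matched, and this gene is not analysed here. The genes were chosen with earlier results of the same comparison in view, in which *tud* stood near the high end. Their ratios are therefore given as a description, and no p-value is given for any of them.

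Germ plasm is the cytoplasm at the posterior pole of the *Drosophila* egg, loaded with maternal RNAs and proteins during oogenesis. Oskar nucleates it and recruits Vasa and Tudor, and the cells that form there, the pole cells, become the germ line. The piRNA pathway silences transposons in the germ line through small RNAs bound to the Argonaute-family proteins Piwi, Aubergine and AGO3. Tudor-domain proteins link these machineries, because they bind methylated arginines on Aubergine and its relatives. Most of these RNAs are supplied by the mother and are cleared from somatic cells during early embryogenesis.

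RNA from wild-type *Drosophila melanogaster* embryos wounded by laser was compared with RNA from unwounded embryos on 3 arrays of 2 colours, named A, B and C. Wounded embryos carried Cy5 and unwounded embryos carried Cy3 on every array, so a dye effect of a probe and wounding cannot be told apart. No label used here gives the embryos' age, the time after wounding or the number of embryos per array. No label states either whether separate collections of embryos were used, so the spread between arrays may be technical. Values are log2 of the ratio of the colours. Above 0 the RNA was probably more abundant in wounded embryos: ratios of this kind are mostly formed as Cy5 over Cy3, and the title of the series puts the wounded embryos in front. The sample titles use the other order and no label states the direction, so every high and low below exchanges if the ratio runs the other way. In whole embryos, fewer cells of a type and less RNA per cell cannot be told apart.

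The arrays held 12110, 12068 and 12086 values, and their number limits the precision. The non-control probes had median log2 ratios of 0.0029 (A), 0.016 (B) and −0.0029 (C). Control spots named for plant genes, which should find little fly target, were not centred there. Their median was −0.23 over 119 spots, with −0.35 on A, −0.22 on B and −0.16 on C. No spot intensities were used, so it is unknown which member probes were bright enough to be measured well.

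*tud* encodes Tudor, the large scaffold protein of germ plasm granules that carries many Tudor domains. Its spot of clone GH27372 had a log2 ratio of 1.39 on A, 0.83 on B and 0.68 on C. The ratio was high on each of the 3, and array A was the farthest from 0. The mean was 0.97 ± 0.38 (SD, n = 3), a ratio of 1.96, and only 2 of the 11887 probes had a higher mean. It was the single member probe past the threshold, a limma adjusted p of 0.05, so 1 of 12 member probes had a called high ratio and 0 a called low ratio. Over all tested probes 1.55% were called, with 0.513% high and 1.03% low. Because the choice of *tud* rested on this value, the count supports nothing.

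The same clone was spotted again, under a name that marks it as re-amplified, and that spot did not share the high ratio. The re-amplified spot of GH27372 had −0.13 on A, −0.051 on B and 0.054 on C. Its mean was −0.043 ± 0.094 (SD, n = 3), and 33.2% of all tested probes had a lower mean. The original spot exceeded it by 1.53 on A, by 0.88 on B and by 0.63 on C. These differences between spots of 1 clone, 1.01 on average, are larger than the spread of either spot between arrays. With both spots averaged, the mean for *tud* was 0.46 ± 0.15 (SD, n = 3), which lay above 99.4% of 8215 gene means. It was called high, as were 0.523% of gene means (2.01% were called in either direction). The SD here is between arrays and leaves out the difference between the spots. The original spot, on which the choice of *tud* rested, enters this mean, so its rank and call support nothing.

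**Figure D1:**
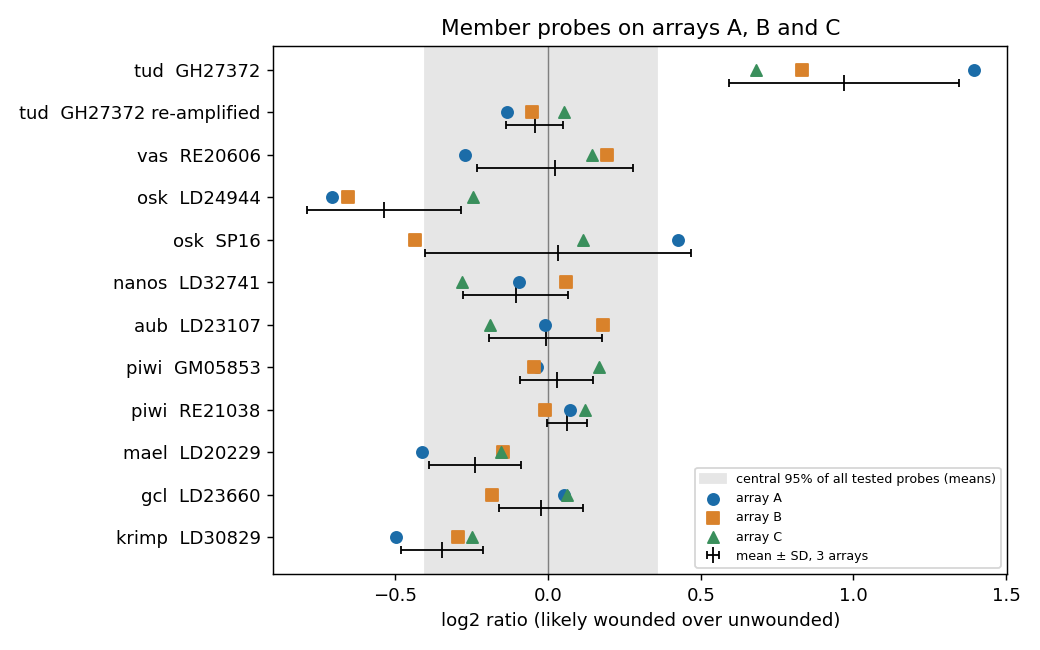
Log2 ratio (horizontal axis) of each of the 12 member probes (rows) on array A (circles), B (squares) and C (triangles), with the mean and SD over 3 arrays as a black tick and bar under the points. The grey band spans the central 95% of means of all tested probes, −0.40 to 0.36. The original *tud* spot lies right of the band on all arrays, its re-amplified spot lies inside it, and the LD24944 probe of *osk* has its mean left of it.

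A disagreement between an original and a re-amplified spot was common on these arrays. Of 383 clones with both spots measured, 60.6% had means of the same sign on both. Across these clones, which are not independent replicates and share the arrays, the means correlated weakly (Pearson r = 0.030, Spearman rho = 0.10). Between the different clones of 1012 genes with exactly 2 clones, Pearson r was 0.25 and Spearman rho 0.35. Both clones had the same sign for 63.6% of these genes. Why re-amplified pairs correlated less was not tested. The original spots were more dispersed, with an SD over clones of 0.32 against 0.16 for the re-amplified spots and 0.18 for all tested probes. The median absolute difference within a pair was 0.16. The difference for *tud* was the third in size, with 2 pairs differing more. The largest was that of clone RH38225, whose original spot had −0.94 on A, −6.64 on B and −0.057 on C. Its value on B is the log2 of 0.01, the floor of the ratio. This clone is included in the correlations, the SD of 0.32 and the rank of *tud*.

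Of the 383 original spots, 15 passed the threshold, 11 high and 4 low. The re-amplified partner had the same sign in 12 of the 15 and passed the threshold itself in 1. The called originals had a median size of 0.56, and their partners, taken in the direction of the call, a median of 0.077. The originals were picked for passing the threshold and the partners were not, so a smaller partner median was partly fixed in advance. Of the re-amplified spots, 3 passed the threshold, and the original had the same sign in 3. The *tud* spot is 1 of the 3 called originals whose partner had the opposite sign. Which of the 2 spots reports *tud* RNA was not tested, and the array has no probe of another *tud* clone among those matched.

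**Figure D2:**
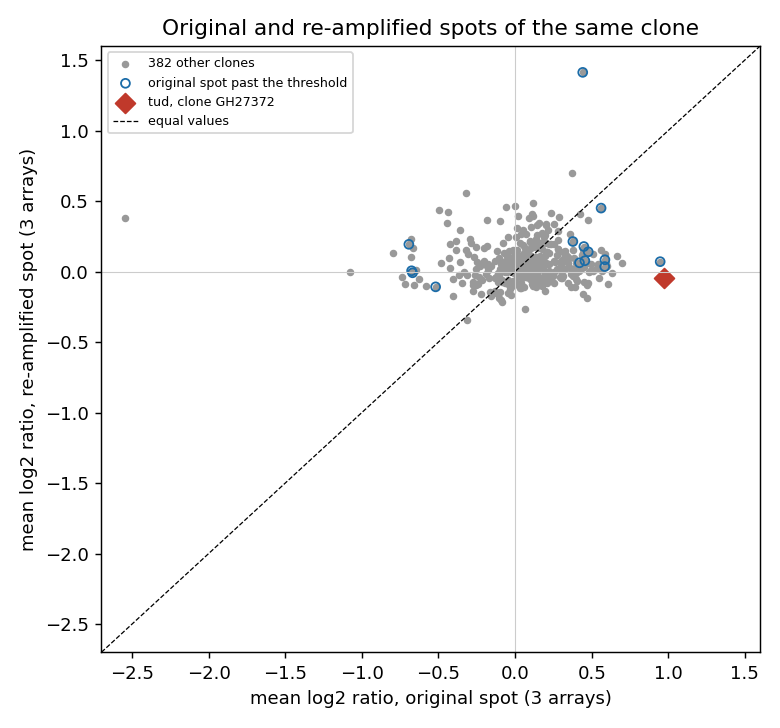
Mean log2 ratio over 3 arrays of the original spot (horizontal axis) and the re-amplified spot (vertical axis) of 383 clones. Grey points are 382 other clones, blue rings mark clones whose original spot passed the threshold, the red diamond is *tud*, and the dashed line marks equal values. Most clones spread along the horizontal axis, and *tud* lies at its right end, at 0.97 against −0.043.

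Among the genes that build germ plasm, *osk* encodes Oskar, the protein that organises it. The LD24944 probe of *osk* had −0.71 on A, −0.66 on B and −0.25 on C, low on all 3. Its mean of −0.54 ± 0.25 (SD, n = 3), a ratio of 0.689, was the lowest of the member probes, and 0.967% of all tested probes had a lower mean. It was not called. A second *osk* probe, SP16, had 0.42, −0.44 and 0.11 on the same arrays, with opposite signs on arrays A and B, and a mean of 0.034 ± 0.44 (SD, n = 3). The probes differed by 0.57. Of 1012 genes with exactly 2 clones, 98.0% had a smaller difference between them, and the median difference was 0.077. The mean of both *osk* probes was −0.25 ± 0.26 (SD, n = 3), an SD as large as the mean.

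The other germ plasm genes lay close to a ratio of 1. *vas* encodes Vasa, a DEAD-box RNA helicase that marks germ cells, and its probe RE20606 had −0.27, 0.19 and 0.14. Array A was low and arrays B and C were high, giving 0.022 ± 0.25 (SD, n = 3). *nanos* encodes a translational repressor made at the posterior pole, and its probe LD32741 had −0.094, 0.058 and −0.28, a mean of −0.11 ± 0.17 (SD, n = 3). *gcl*, germ cell-less, is needed to form pole cells, and its probe LD23660 had 0.051, −0.18 and 0.064, a mean of −0.023 ± 0.14 (SD, n = 3). For each of these 3 genes the arrays disagreed in sign and the SD exceeded the size of the mean.

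Of the piRNA-binding proteins, both measured genes were also near a ratio of 1. *aub* encodes Aubergine, the cytoplasmic partner of piRNAs that is concentrated in germ plasm, and its probe LD23107 had −0.0087, 0.18 and −0.19. Its mean was −0.0069 ± 0.18 (SD, n = 3). *piwi* encodes the nuclear member of the family, which directs transcriptional silencing of transposons. The GM05853 probe of *piwi* had −0.037, −0.045 and 0.17, and the RE21038 probe had 0.073, −0.0087 and 0.12. Their means were 0.028 ± 0.12 and 0.062 ± 0.065 (SD, n = 3 each). These 2 clones differed by 0.033, less than the spread of either between arrays, and 24.6% of genes with 2 clones had a smaller difference.

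*krimp* and *mael*, whose proteins act in the nuage, the perinuclear body of germ cells where piRNAs are made, both had ratios below 1. *krimp* encodes a Tudor-domain protein that brings AGO3 and Aubergine together. Its probe LD30829 had −0.50 on A, −0.29 on B and −0.25 on C, a mean of −0.35 ± 0.13 (SD, n = 3) and a ratio of 0.786. *mael* encodes Maelstrom, which acts in transposon silencing and in piRNA production. Its probe LD20229 had −0.41, −0.15 and −0.16, a mean of −0.24 ± 0.15 (SD, n = 3). Both were low on every array and lowest on array A, and neither was called. Over all tested probes 3.39% had a lower mean than *krimp* and 6.39% a lower mean than *mael*.

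These low values stand beside those of the control spots. *osk* on LD24944, *krimp* and *mael* were each lowest on array A. The plant spots were also lowest there, while the 32 fly genomic control spots, with a median of −0.19, were lowest on array B (−0.073 on A, −0.45 on B and −0.066 on C). The mean of *mael* is close to the plant median of −0.23, but the plant spots were widely spread, with quartiles of −0.50 and −0.059. The mean of *krimp* also lies between these quartiles, and that of *osk* on LD24944 lies below them. The part of weak signal in these values was not tested. All 3 are LD clones, from an embryonic library, and LD clones had a median of −0.0092, with −0.035 on array A. Within the 2805 LD probes, 0.606% had a lower mean than *osk*, 2.89% than *krimp* and 5.63% than *mael*.

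**Figure D3:**
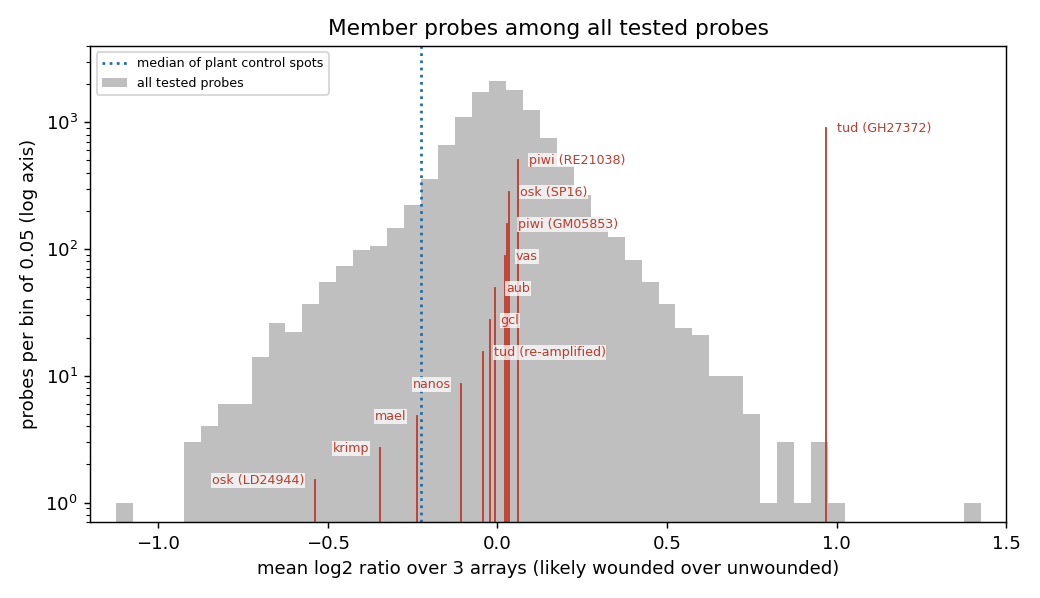
Distribution of the mean log2 ratio over 3 arrays for all tested probes (grey bars, bins of 0.05, log vertical axis), with the member probes as red lines whose heights only separate the labels. The dotted line is the median of the plant control spots, −0.23, and 4 tested probes lie outside the axis from −1.2 to 1.5. Except for *tud* on GH27372 at the right end, the member probes lie within the bulk or on its left flank, where *osk*, *krimp* and *mael* stand.

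As a group the members were spread around a ratio of 1. Their median was −0.015, against 0.0035 for all tested probes, and 7 of 12 lay below 0, against 48.7% of all probes. Of the 12, 3 were negative on all arrays, as were 19.7% of all probes, and 1 was positive on all arrays, as were 22.0% of all probes. On arrays A, B and C the median member probe lay at −0.065, −0.048 and 0.059. Their median SD between arrays was 0.16, against 0.11 for all probes. Ordered by mean, the *tud* spot of GH27372 stood 0.91 above the next probe, RE21038 of *piwi*, a gap beyond the SD of either. No other neighbours in this order differed by more than the larger of their SDs, down to LD24944 of *osk* at the low end.

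The same was asked of 98 other genes in 6 lists of related function, of which 74 had a tested probe. The lists too were chosen with earlier results of these data known, so their counts and p-values are no independent check. Of the 91 probes of these genes, 0 had a called high ratio and 1 a called low ratio. The unadjusted limma p was under 0.05 for 17 of them, or 18.7%, against 18.4% of all tested probes. The probe called low belongs to *gnu*, whose protein activates the kinase that drives translation at egg activation, with −0.80 on A, −0.80 on B and −0.58 on C (−0.72 ± 0.13, SD, n = 3; limma adjusted p = 0.0441). This call was lost when array A, B or C was left out, and no probe of the whole table was called on the linear ratio or with clone libraries centred. *gnu* is the lowest of the 14 measured genes of maternal RNA clearance and egg activation, whose median gene mean was −0.040.

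Other piRNA pathway genes had 23 of 28 measured, and 0 of their 24 probes were called in limma, with 5 at an unadjusted p under 0.05. Gene means had a median of −0.058, and 18 of 23 lay below 0, against 50.2% of all 8215 genes. *shu*, which encodes a co-chaperone that helps load piRNAs, had −0.59, −0.40 and −0.26 (−0.42 ± 0.17, SD, n = 3; limma adjusted p = 0.0722). *Gasz*, a mitochondrial scaffold of piRNA processing, had −0.27 ± 0.13 (SD, n = 3), and *vret*, which encodes a Tudor-domain protein, had −0.40 ± 0.35 (SD, n = 3). Both were negative on all arrays, with limma adjusted p-values of 0.134 and 0.204. The highest was *csul* at 0.44 ± 0.41 (SD, n = 3; limma adjusted p = 0.221), named after its value was seen. It encodes the arginine methyltransferase that modifies Tudor ligands.

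The genes that localise *osk* RNA and assemble germ plasm had 18 of 24 measured, with 0 of 24 probes called in limma and 3 at an unadjusted p under 0.05. *exu*, an RNA localisation gene of the oocyte, had −0.24 ± 0.046 (SD, n = 3; limma adjusted p = 0.106). *stau*, whose RNA-binding protein carries *osk* RNA to the posterior, had 0.21 ± 0.13 (SD, n = 3; limma adjusted p = 0.199). *Hrb27C*, an *osk* repressor, had −0.30 ± 0.28 and −0.049 ± 0.25 on different clones (SD, n = 3 each; limma adjusted p = 0.252 and 0.847). The list median of gene means was −0.011.

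Pole cell and germ cell genes had 11 of 16 measured, with 0 of 15 probes called in limma and 5 at an unadjusted p under 0.05. *stil*, a germ line gene of the ovary, was low on every array at −0.64 ± 0.33 (SD, n = 3; limma adjusted p = 0.0801). For *otu*, an ovarian tumour gene, spots of 1 clone also disagreed. The original spot of RE64188 had −0.36 ± 0.084 (SD, n = 3; limma adjusted p = 0.0633), and the re-amplified spot had 0.29 ± 0.18 (SD, n = 3; limma adjusted p = 0.155), with no overlap between arrays. The spots of *mamo*, which encodes a zinc finger protein, had 0.24, −0.048 and −0.0032, the highest of them re-amplified (limma adjusted p = 0.213, 0.928 and 0.985).

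Genes of the microRNA and siRNA machinery had 5 of 8 measured, with 0 of 5 probes called in limma and 1 at an unadjusted p under 0.05. The Drosha partner gene *pasha* had −0.20, *Dcr-2* had 0.20 and its partner gene *r2d2* had 0.017 (limma adjusted p = 0.219, 0.278 and 0.931). In the somatic gonad list 3 of 7 genes were measured, and 0 of 4 probes were called in limma, with 1 at an unadjusted p under 0.05. Probes of *eya* had −0.20 and 0.053, *foi* had 0.056 and *zfh1* had −0.013 (limma adjusted p = 0.160, 0.666, 0.656 and 0.934).

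**Figure D4:**
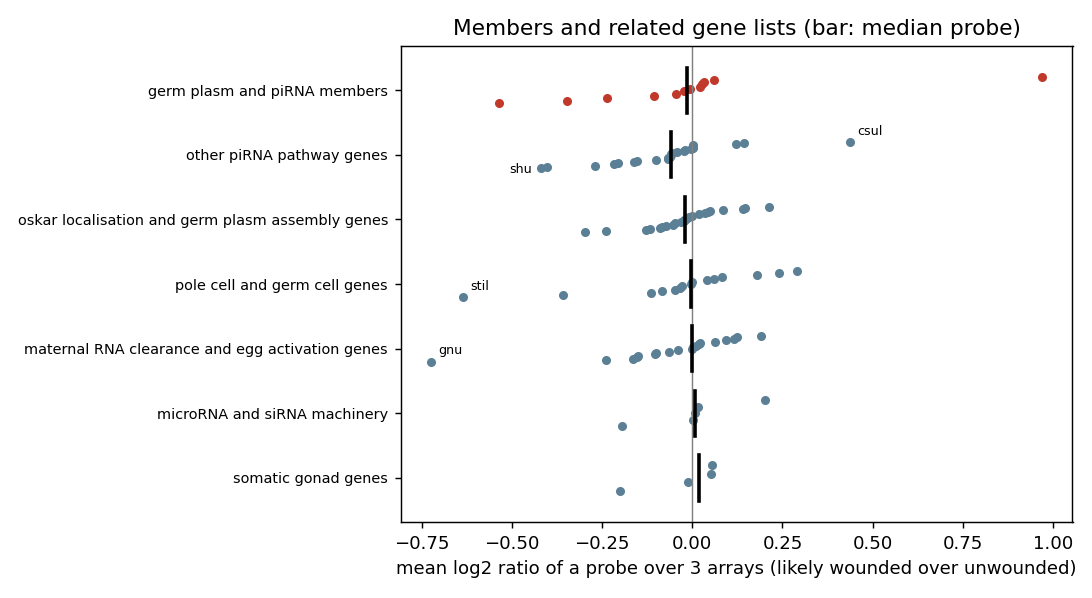
Mean log2 ratio over 3 arrays of each probe (points, horizontal axis) for the 12 member probes (red, top row) and the 91 probes of 6 related lists (blue rows below). Black bars are the median probe of each row. All medians lie near 0, and *gnu* is the sole probe of the blue rows past the threshold, a call lost when any array is left out.

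The probes whose 3 ratios were most like those of the *tud* spot, by Euclidean distance over the arrays, belonged to *pdm3*, a POU-domain transcription factor gene (0.26), *Gadd45*, a stress gene (0.39), *Ehbp1* (0.39), *Pcl*, a Polycomb-group gene (0.39), and *CG12818* (0.45). Their mean log2 ratios were 0.95, 0.85, 0.87, 0.95 and 0.92. The original *pdm3* spot also has a re-amplified partner, which lay at 0.070. With 3 arrays such likeness is a description only.

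Markers of cell types that whole embryos hold are given for comparison. Of 7 germ cell markers 6 were measured, with gene means between −0.11 and 0.062, but 4 of these (*vas*, *nanos*, *aub* and *piwi*) are members themselves. The other two, *ovo* and *zpg*, had gene means of −0.074 and 0.062. Gene means of the 4 haemocyte markers ran from −0.032 to 0.11. The 0.11 is that of *NimC1*, whose spots of 1 clone disagreed, with means of 0.12, 0.39 and −0.19. Gene means of the 3 epidermal cuticle markers ran from −0.042 to 0.54 and those of the 3 gut and fat body markers from −0.48 to 0.077. Among the latter, the spots of *Yp1* had opposite signs on every array. The epidermal value of 0.54 is that of *Cpr56F*, with 0.95 on A, −0.63 on B and 1.30 on C (SD 1.03). The neuron markers *elav* and *nSyb* had −0.55 ± 0.70 and −0.069 ± 0.10 (SD, n = 3 each). The arrays disagreed in sign for *elav*, with −0.54 on A, −1.25 on B and 0.13 on C. The somatic gonad marker *eya* had a gene mean of −0.073. The fat body marker *Fbp2* was the one called probe among the markers, with a low ratio of −0.48. None of the muscle markers on the list (*Mef2*, *Mhc* and *Act57B*) had a tested probe with 1 symbol. Ratios carry no level, so they do not show how much germ cell RNA the embryos held, and the part of these cells in the members' values was not tested.

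Clone library moved with the calls as well. GH clones, to which both *tud* spots belong, made up 18.2% of tested probes and gave 11 high and 63 low calls. With each clone library centred on each array, the *tud* spot kept a positive mean and lost its call, as did all 184 called probes of the table. LD clones, which carry 6 of the 12 member probes, gave 5 high and 22 low calls out of 2805. The call of *tud* was lost when each array was centred on its median, a shift of at most 0.016, and when array A, B or C was left out, with its mean between 0.76 and 1.11 in those fits. With 3 arrays the smallest two-sided p of an exact sign-flip test is 0.25, so each call rests on variances pooled over probes.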

How the data were processed

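The deposited table held 12144 rows and 1 value per array, all below 0, with medians of −1.001 (A), −1.01 (B) and −0.997 (C). Target was made from total RNA by amino-allyl reverse transcription, per the labels. The deposited values were taken to be linear ratios of the colours with the sign turned, which the authors had brought to about 1 on each array and floored at 0.01. That reading comes from the values alone. No source used here gives the scanner, the background correction or the normalization. The sign was removed and log2 taken.

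Of all rows, 160 control spots were left out (128 with names of plant genes), and 97 other probes lacked a value on an array. Gene names came from the platform annotation, updated by Entrez identifier (9670 tested probes) or by symbol (158) through a RefSeq table of assembly Release 6 plus ISO1 MT; 11 kept an older name, 620 had several symbols and 1428 none. The *vas* probe matched by symbol, and *nos*, an older synonym of 2 genes, was taken as *nanos*. The suffix that marks re-amplified spots was read from the probe names.

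An intercept was fitted to the log2 ratios of each probe (limma 3.58.1, R 4.3.3) with moderated variances (prior SD 0.116, 3.38 prior degrees of freedom) and Benjamini-Hochberg adjustment over 11887 probes. The fit was tested on simulated data with normal noise drawn independently for each probe and array. That noise held no dye effect, clone library shift or failed spot, so the test says nothing about these. The members, lists and alternatives were chosen with earlier results of these data known. Every member probe is named. From each related list the genes past the threshold are named, or otherwise the 3 of smallest p, as are the 5 probes nearest to the member probe of largest mean. There is 1 group, so no pairing of replicates applies.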

Additional observations from a re-analysis of the deposited data

How the results depend on the processing

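Against 184 calls over all probes, 1 call among member probes and 1 in the related lists, an adjusted p of 0.10 gave 683, 3 (adding LD24944 of *osk* and LD30829 of *krimp*) and 4, and array weights gave 441, 1 and 3 (adding *shu* and *otu*). The linear ratio gave 0 calls over all probes and 0 among members (2168 probes at an unadjusted limma p under 0.05), and centred clone libraries likewise 0 and 0 (2201). Member calls were also 0 with arrays centred on the median, with scaled arrays and with values on at least 2 arrays, and 1 with quantile normalization, robust moderation and gene means. Leaving out 1 array gave 0 to 1 calls over all probes (the 1 without array C), 0 to 0 among members and 0 to 0 in the related lists. The cause of these losses was not tested. The *tud* spot kept a positive mean in all 10 alternatives that give it, from 0.76 to 1.11, and the means of *krimp*, *mael* and LD24944 of *osk* stayed negative in theirs. Each of these probes had the same sign on every array. Leaving out or weighting arrays could therefore not change the sign, and its being kept supports nothing. Of 110 values of the other member probes under these alternatives, 12 changed sign and 0 moved by more than the SD between arrays. Leaving out 1 of 3 arrays cannot move a mean by that SD, so for those fits the 0 was fixed in advance. No paired analysis was possible because there is 1 group of arrays. Signal over background is unknown, which limits every value near the control spots.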
